A study of Homo sapiens with 10 samples.

Results

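The 4 human Y RNA genes RNY1, RNY3, RNY4 and RNY5 were examined for contact with PUS7, an enzyme that turns uridine into pseudouridine in tRNA and other RNAs. Their members here are the peaks of FLAG-tagged PUS7 that overlap one of these genes by at least 1 base, 18 of 2048 deposited peaks. The members were chosen by overlap with a peak that the authors called from the signal, so that their signals, ranks and p-values are given as a description with no test. The study used UV light (254 nm, 200 mJ/cm2) to crosslink living cells and pulled down FLAG-PUS7 with its RNA (iCLIP). HEK 293T, a transformed embryonic kidney line at passage 20 to 25, gave 3 libraries from PUS7 knockout cells that carried FLAG-PUS7. H9, a human embryonic stem cell line at passage 40 to 45, gave 2 such libraries. All 5 therefore share the loss of the cells' own PUS7 and the added tagged enzyme, and how the tagged enzyme was expressed was not given in the sources used here. Another 3 libraries of 293T and 2 of H9 came from the PUS7 knockout without FLAG-PUS7 and passed through the same anti-FLAG pull-down. The peak lists used here are those of the FLAG-PUS7 libraries, so no signal at a Y RNA in a knockout library is given.

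Y RNAs are short noncoding RNAs made by RNA polymerase III. They fold into a stem with an internal loop, bind the protein Ro60 (RO60) near the lower stem and the La protein (SSB) at their uridine-rich end, and form the Ro ribonucleoprotein. They are known for roles in RNA quality control and in the start of DNA replication, and are cut into stable fragments in stressed or dying cells. The human genome also carries many Y RNA pseudogenes, which resemble the 4 genes in sequence.

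The 4 genes lie in a cluster on chromosome 7 that spans 45761 bases of GRCh38, the assembly that hg38 names. RNY5 is an 84-base gene at 148941488 to 148941571, and RNY4 a 96-base gene at 148963315 to 148963410. RNY3 covers 102 bases at 148983755 to 148983856, and RNY1 covers 113 bases at 148987136 to 148987248. RNY3 and RNY1 are neighbours, 3279 bases apart, whereas 21743 bases separate RNY5 from RNY4. No other RefSeq gene overlaps these peaks. The cluster held 0 further peaks in any list, and the nearest peak beyond it lay 427752 bases away in the first H9 list, with a signal of 9.

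The peaks were built from fixed bins of 200 bases, so that each bin is longer than the RNA it holds. RNY5 lay whole within the bin at 148941401 to 148941600, and all 5 lists reported that bin. RNY4 had the bin at 148963201 to 148963400, which holds 86 of its 96 bases. RNY3 straddles a bin border, and each of its peaks spanned 2 bins, from 148983601 to 148984000. RNY1 also straddles a border. Its peak spanned 2 bins (148987001 to 148987400) in the first 293T and the first H9 list, and 1 bin (148987001 to 148987200) with 65 of its 113 bases in the other lists. Peaks at RNY5, RNY4 and RNY3 were on the plus strand and those at RNY1 on the minus strand, in every list with a peak. Where in the Y RNA the crosslinks fell cannot be told from bins.

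**Figure D1:**
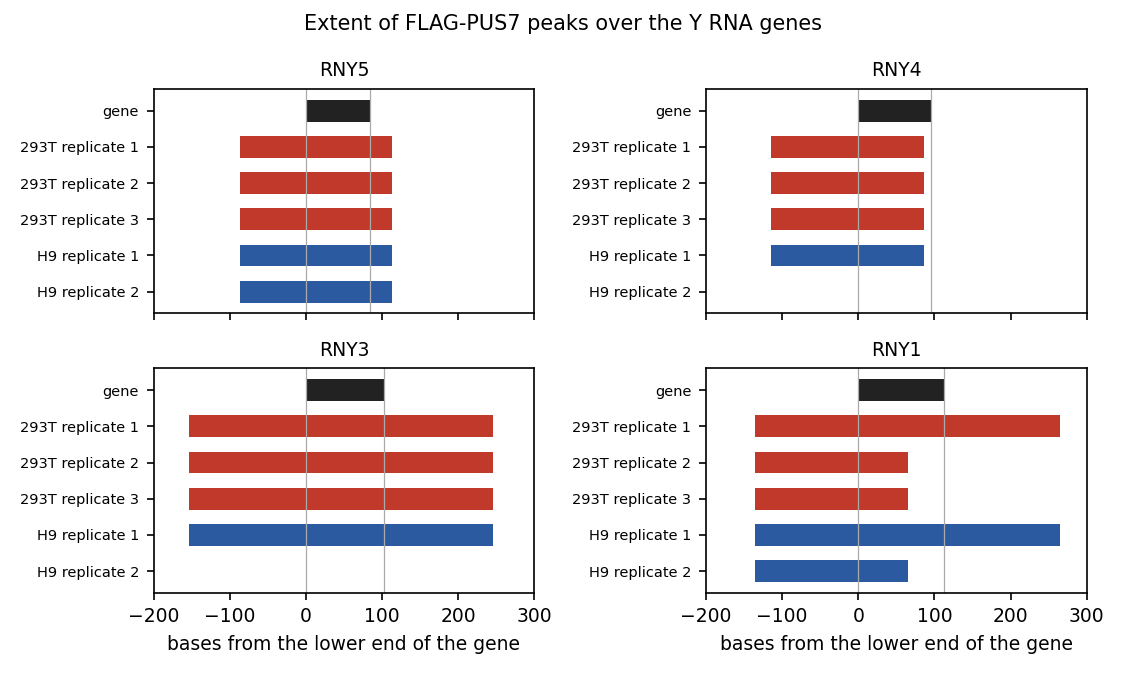
Extent of each FLAG-PUS7 peak (red, 293T; blue, H9) over each Y RNA gene (black), on a horizontal axis of bases from the gene's lower genomic end. RNY5 and RNY4 had peaks of 1 bin, RNY3 peaks of 2 bins, RNY1 peaks of 1 or 2 bins, and RNY4 and RNY3 had no peak in the second H9 library.

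The lists differed in length, with 120, 85 and 39 peaks in 293T against 1605 and 199 in H9. Their median signal was 20, 28 and 40 in 293T against 3 and 11 in H9, so that neither a signal nor a rank can be compared directly between lists. The signal of a peak was a whole number in all 1901 peaks of 1 bin and the mean over bins in longer ones. Its unit and the sequencing depth were not given in the sources used here. Of 12 pluripotency marker genes, 4 (LIN28A, DPPA4, TERF1 and DNMT3B) had a peak in the first H9 list, where 4.31% of all protein-coding genes had one, and 0 had one in any other list. The signals of these marker peaks were 3 or 4, beside a list minimum of 3. POU5F1, SOX2 and NANOG had no peak in any list, and a peak is not an expression level, so that the lists do not serve as a check of the cell line labels.

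Of 20 combinations of gene and list, 18 had a peak. RNY5 and RNY1 had a peak in all 5 lists. Of 1619 loci merged over all lists, 1.98% had a peak in all 5, and nothing is read from the Y RNA count against this share because the peaks chose the members. RNY4 and RNY3 had a peak in 4 lists, and the second H9 list had none at either. Of 37 loci with a peak in the other 4 lists (2.29% of all loci), 5 had none in the second H9 list. RNY4 and RNY3 are among those 5.

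RNY5, the shortest of the 4 RNAs, carried the highest signal of the Y RNAs in every list. Its signal was 879, 446 and 213 in the 3 293T libraries and 113 and 63 in the 2 H9 libraries. All 293T values lay above both H9 values before any scaling, as they also did at other shared loci, such as TRG-CCC2-2 and TRV-CAC3-1. Nothing is read from this order, because signals of different lists cannot be compared directly. It ranked 1 of 120, 4 of 85 and 7 of 39 in 293T, and 15 of 1605 and 17 of 199 in H9. The signal was 43.95, 15.9 and 5.33 times the median peak of its own list in 293T, and 37.7 and 5.73 times in H9. The p-values of the peak lists are the authors', from a test that was not given in the sources used here. At RNY5 they ran from 1.40e-15 to 1.05e-11. RNY5 alone made up 11.7%, 6.18% and 5.12% of the summed signal of the 293T lists and 0.822% and 1.19% of that of the H9 lists.

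RNY4 and RNY3, whose RNAs also belong to Ro particles, had signals of 0.85 to 2.05 times the list median in 293T. RNY4 had a signal of 41, 30 and 41 in 293T, a mean of 37.3 ± 6.35 (SD, n = 3), and of 11 in the first H9 library. Its ranks were 35 of 120, 41 of 85 and 19 of 39 in 293T and 184 of 1605 in H9. RNY3 had a mean signal per bin of 36.5, 44.5 and 34 in 293T, 38.3 ± 5.48 (SD, n = 3), and of 6 in the first H9 library, at ranks 38, 32 and 23 in 293T and 335 in H9. As deposited, both genes thus varied less between the 293T libraries than RNY5 did, whose signal spanned 213 to 879. No reading is drawn from this, because signals of different lists cannot be compared directly. The highest authors' p at RNY4 was 1.73e-05, in the second 293T list. At RNY3 p was 0.00474 in the third list of 293T, and 0.00559 in the H9 list with a peak. The lowest signal reported anywhere in the second H9 list was 6, and no value can be given there for RNY4 or RNY3.

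As deposited, RNY1, the longest of the 4 RNAs, had its highest signal in an H9 library, whereas the other 3 had theirs in 293T. Other shared loci, such as TRE-CTC9-1 and TRK-CTT2-4, also had their highest signal in an H9 library. No reading is drawn from this, since signals of different lists cannot be compared directly. The RNY1 signal was 35, 65 and 39 in 293T against 103 and 35 in H9. These groups overlap as deposited, since the second H9 library equals the first 293T library. The value of the first library of each line is a mean over 2 bins. With bins summed, the values were 70, 65 and 39 in 293T against 206 and 35 in H9, and the groups still overlap. By its signal as deposited, RNY1 ranked 39 of 120, 22 of 85 and 21 of 39 in 293T, and 17 of 1605 and 28 of 199 in H9. The signal was 34.3 times the list's median in the first H9 list, whose median equals its lowest signal of 3, and 3.18 times in the second. In the 293T lists it was 0.975 to 2.32 times. RNY1 also had the highest authors' p of the 4 genes in the first and second 293T lists, 0.00273 and 0.0436. The latter was the highest p of that whole list, although 63 of its 85 peaks had a lower signal.

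**Figure D2:**
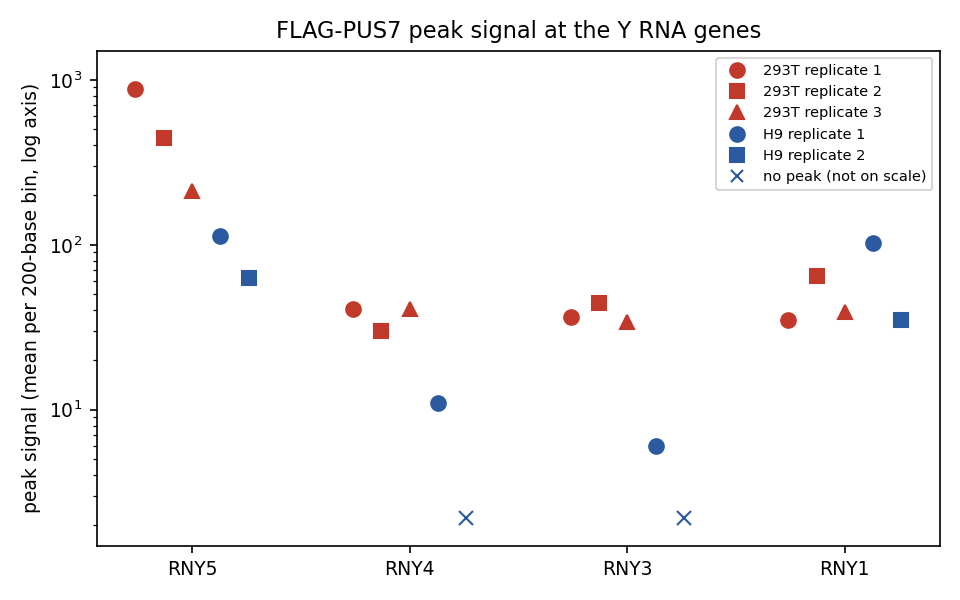
Peak signal (mean per 200-base bin, log axis) at each Y RNA gene in the 3 293T libraries (red) and the 2 H9 libraries (blue), with a cross where the list has no peak. RNY5 runs from 63 to 879 and is highest in every list, and RNY1 is the gene at which an H9 library, at 103, lies above all 293T libraries.

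To set the genes against each other, the signal was summed over bins and divided by the length of the whole gene. This length was also used where the peak covered a part of the gene. That was 65 of 113 bases at RNY1 in the lists with a peak of 1 bin, and 86 of 96 bases at RNY4. Per 100 bases of gene, RNY5 had 1046, 531 and 254 in 293T against 135 and 75.0 in H9. RNY3 had 71.6, 87.3 and 66.7 in 293T and 11.8 in the first H9 library. RNY1 had 61.9, 57.5 and 34.5 in 293T against 182 and 31.0 in H9. RNY4 had 42.7, 31.3 and 42.7 in 293T and 11.5 in the first H9 library.

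On this scale RNY5 stood first and RNY3 second in all 3 293T libraries. The place of RNY1 against RNY3 can depend on dividing by the whole gene, and an order per covered base was not computed. RNY1 and RNY4 came after them in either order, and their 293T ranges overlap. In the first H9 library RNY1 stood above RNY5, while RNY4 over RNY3 was 0.974. In the second H9 library RNY5 stood above RNY1. The order of RNY5 and RNY1 in H9 thus depends on the library, and on whether bins are summed, since the mean signal per bin put RNY5 first in both.

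A ratio within a list is free of any factor common to all its signals, but not of which bins were reported. The RNY1 peak had 2 bins in the first list of each line and 1 bin in the other lists. Whether this width goes with depth was not tested. RNY5 over RNY1, from the signals as deposited, was 25.1, 6.86 and 5.46 in 293T against 1.10 and 1.80 in H9. All 293T ratios lay above both H9 ratios. With bins summed, the ratios were 12.6, 6.86 and 5.46 in 293T against 0.549 and 1.80 in H9. The share of other pairs of loci with such an order was not computed, so that nothing is read from it. From the signals as deposited, the difference in log2 ratio, 293T minus H9, was 2.80. It came from 3.29 ± 1.19 (SD, n = 3) in 293T and 0.49 ± 0.51 (SD, n = 2) in H9. After subtraction of the second number described below, with its lowest value counted as 0, the difference was 0.38. The second H9 library then gave a ratio of 63.0, with RNY5 unreduced and RNY1 set to the floor of 1. RNY5 over RNY4, by contrast, was 21.4, 14.9 and 5.20 in 293T and 10.3 in the first H9 library, which lies inside the 293T range. RNY5 over RNY3 was 24.1, 10.02 and 6.26 in 293T and 18.8 in the first H9 library, again inside the range. RNY5 carried 88.7%, 76.2% and 65.1% of the Y RNA signal in 293T against 48.5% and 64.3% in H9, where the last value is a share of RNY5 and RNY1 alone. With bins summed the shares were 82.7%, 70.8% and 59.0% in 293T beside 33.0% and 64.3% in H9, and the groups overlap.

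The comparison of the cell lines asked whether Y RNA contact differed between kidney-derived cells and stem cells. Each signal was divided by the summed signal of the 32 loci that had a peak in all 5 lists. On this scale RNY5 was higher in 293T and RNY1 higher in H9. RNY5 made up 17.0%, 8.03% and 5.89% of the shared-locus signal in 293T against 4.18% and 3.45% in H9. RNY1 made up 0.677%, 1.17% and 1.08% in 293T against 3.81% and 1.92% in H9. Neither gene's groups overlap, and they lie in opposite directions.

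The log2 difference, 293T minus H9, was 1.29 for RNY5, a ratio of 2.45, and -1.51 for RNY1, a ratio of 2.85 in favour of H9. Among the 32 shared loci the median difference was 0.10, with a range from -2.86 to 2.99. RNY5 had the sixth highest value of the 32 and RNY1 the third lowest. Loci with all 293T libraries above both H9 libraries made up 28.1% of the 32, and loci the other way made up 28.1% as well, so that a pattern without overlap is common here. With 3 libraries against 2, the smallest exact two-sided permutation p is 0.1, and no test was run. Whether more RNA was bound or more of the RNA was present cannot be told apart, since Y RNA levels were not measured in the files used here. Each library came from a single cell line, and how uniform its cells were was not measured in the files used here.

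These values depend on the scaling. Without scaling, the difference was 2.37 for RNY5 and -0.43 for RNY1. Scaled by the sum of all peaks of a list, it was 2.86 for RNY5 and 0.06 for RNY1, which reverses RNY1. That sum includes the many weak peaks of the first H9 list, 1605 in number. Without the first 293T library, the highest at RNY5, the difference for RNY5 was 0.86.

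**Figure D3:**
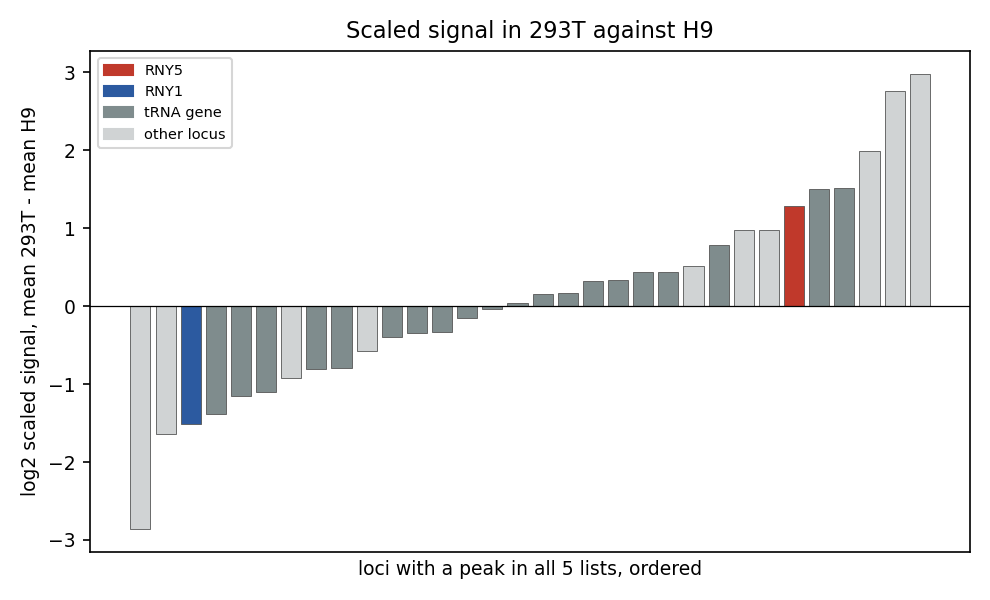
Difference in log2 scaled signal, mean of 3 293T libraries minus mean of 2 H9 libraries, for each of the 32 loci with a peak in all 5 lists, ordered along the horizontal axis; bars are red for RNY5, blue for RNY1, dark grey for tRNA genes and light grey for other loci. RNY5 at 1.29 and RNY1 at -1.51 stand towards opposite ends of a range from -2.86 to 2.99.

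RNY4 and RNY3 could be set on this scale in 4 libraries. RNY4 made up 0.793%, 0.540% and 1.13% of the shared-locus signal in 293T and 0.407% in the first H9 library. RNY3 made up 0.706%, 0.801% and 0.941% in 293T and 0.222% in the first H9 library. The single H9 value of each gene lay below its 293T values. The share of other loci with that order was not computed, so that nothing is read from it. In the second H9 list the lowest reported signal came to 0.329%, above the RNY3 value of the first H9 list and below its RNY4 value.

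Together, the 4 genes held 13.2%, 8.12% and 7.86% of the summed signal of the 293T lists, 9.71 ± 2.99 (SD, n = 3). In H9 they held 1.70% and 1.85%, 1.77 ± 0.112 (SD, n = 2). The difference of 7.94 percentage points became 16.9 points over peaks outside tRNA genes. It was 4.60 points over the loci shared by all lists, where RNY5 and RNY1 alone count. There the shares were 17.7%, 9.20% and 6.97% in 293T against 7.99% and 5.37% in H9, which overlap.

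Each peak also carries a second value, the natural logarithm of a whole number, here called the second number. It was whole to within 0.001 in all 1901 peaks of 1 bin, and the lowest, 1, is written as 1e-05. Whether the count behind it is this number or 1 less, and which library it was counted in, was not given in the sources used here. For peaks of 2 bins it is a geometric mean. The lists did not share 1 set of second numbers: of 24 bins of the first and second 293T lists with a number above 1 in either, 2 had the same number in both.

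The Y RNAs differed from each other in this second number. RNY5 had 4, 3 and 2 in 293T beside signals of 879, 446 and 213, and 1 in both H9 libraries. RNY4 had 2 in the second 293T library and 1 in the other 3 lists with a peak. RNY3 had 1.41 in the third 293T library and 1 in the other 3. RNY1 was above 1 in all 5 lists, with 3.16, 15 and 3 in 293T against 8.49 and 63.0 in H9.

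In the second 293T list the RNY1 value was the highest of all 85 peaks, and in the second H9 list it ranked 7 of 199. In the second H9 library it also exceeded the signal of 35 at the same bin. That held for 48 of the 199 peaks of that list, for 4 of 1605 peaks of the first H9 list and for 0 peaks of any 293T list. Of the 18 Y RNA peaks, 10 had a number above 1. Over all peaks the share above 1 was 22.5%, 30.6% and 23.1% in the 293T lists and 20.3% and 62.8% in the H9 lists, against 2, 3 and 3 of 4 Y RNA peaks in 293T, 1 of 4 in the first H9 list and 1 of 2 in the second.

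The difference between the lines was also computed after subtraction of the second number. A number above 1 was subtracted whole, and the lowest number, 1, was counted as 0. On this basis the RNY5 signals of both H9 libraries were left as deposited and those of 293T were reduced by 4, 3 and 2. The log2 difference was then 1.24 for RNY5. For RNY1 it was 0.87, the reverse of the value without subtraction. With the second number less 1 subtracted at every peak, an alternative chosen after seeing the data, the values were 1.25 and 0.90. This reversal rests on the second H9 library, where RNY1 was set to the floor and made up 0.0577% of the shared-locus signal. The first H9 library still gave 3.54%, against 0.618%, 0.909% and 1.00% in 293T. The part of the second number in the RNY1 signal was not tested.

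**Figure D4:**
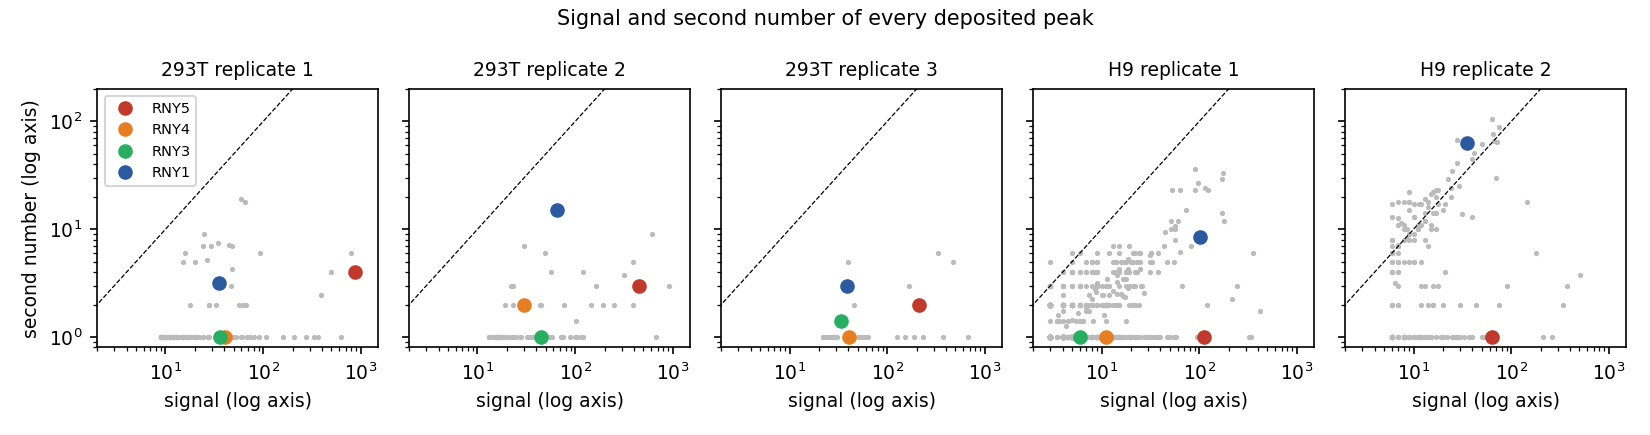
Signal (horizontal, log axis) and second number (vertical, log axis) of every deposited peak, 1 panel per FLAG-PUS7 library, with Y RNA peaks in colour, other peaks in grey and a dashed line where both are equal. RNY5 stays at 4 or below in all panels, whereas RNY1 reaches 15 in the second 293T panel and lies above the line at 63.0 in the second H9 panel.

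Of 75 RefSeq pseudogenes of RNY genes, 5 had a peak in at least 1 list, or 6.67%, and 70 had none. Of all genes that RefSeq classes as pseudogenes, 1.11% had a peak in at least 1 list. By list, 3, 2 and 2 of the 75 had a peak in 293T, 5 in the first H9 list and 0 in the second, where 0.102%, 0.0512%, 0.0320%, 1.10% and 0.307% of all pseudogenes had one. RNY3P1 on chromosome 5 (bin at 79170201 to 79170400, minus strand) had signals of 17, 45 and 22 in 293T and 14 in the first H9 library. RNY4P5 had 28, 20 and 30 in 293T and 11 in the first H9 library, the same signal as RNY4 there. Both had a peak in the same 4 lists as RNY3 and RNY4, and neither had one in the second H9 list.

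RNY3P6, which lies within the gene TM9SF2 on chromosome 13 (bin at 99536201 to 99536400), had a signal of 91 in the first 293T library, above RNY3 in that list. It had 3 in the first H9 library and no peak in the other 3 lists. RNY4P13 and RNY4P2 appeared in the first H9 list alone, with signals of 4 and 3. Reads that match a gene and its copies can be shared out between them in mapping, and how such reads were treated was not given in the sources used here. The values of RNY3, RNY4 and their pseudogenes are uncertain to that extent. None of the 5 is named as a copy of RNY1 or RNY5.

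Transcripts of proteins that bind or process Y RNAs were looked up as a further list of 22 genes. In the first H9 list 8 of them (36.4%) had a peak, against 4.31% of all protein-coding genes in that list. In each of the other 4 lists the number was 0, where 0.120%, 0.0549% and 0.00499% of protein-coding genes had a peak in 293T and 0.239% in the second H9 list. Over any list, 4.32% of protein-coding genes had a peak. RO60 and SSB, the core proteins of the particle, had no peak in any list. Those with a peak were YBX1, RPL5, NCL, MATR3, IGF2BP2, IGF2BP3, PARN and PTBP1. Their signals ran from 3, the lowest of the list, to 6.5 at MATR3, whose bins there also overlap the small nucleolar RNA gene SNORA74A. Another MATR3 peak overlaps SNORA74D, and the NCL peak with a signal of 6 overlaps SNORD20. Peaks at MATR3 also overlap SNHG4, and peaks at RPL5 overlap DIPK1A. Strand was ignored in matching, so that a peak need not come from the transcript of the protein named. The list was not tested, and transcript level and gene length, which were not taken into account, can differ between it and other genes.

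Other short RNAs made by RNA polymerase III were also in the lists, with 12 of 16 looked up having a peak. Of all RefSeq genes, 2.58% had a peak in at least 1 list. In 293T the lists held 5, 4 and 4 of the 16, beside 0.209%, 0.134% and 0.0586% of all RefSeq genes. In H9 they held 11 and 8, beside 2.56% and 0.383%. RMRP, the RNA of the mitochondrial RNA processing ribonuclease, resembled RNY1 in its second number. It had 29.2 beside a signal of 170.5 in the first H9 library and 89.7 beside 75.5 in the second. RN7SK, which holds the elongation factor P-TEFb inactive, had 6.16 beside 64 and 67.0 beside 28. RNU6ATAC, a minor spliceosome RNA, had 12 beside 61 and 15 beside 20. RMRP and RN7SK thus had a second number above the signal in the second H9 library, as RNY1 did.

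The vault RNAs, short RNAs of the vault particle, had lower numbers, with 14 at VTRNA1-1 beside a signal of 16 in the second H9 library as the highest. VTRNA1-2 had peaks in 293T only, with signals of 492, 391 and 334. RN7SK had peaks in H9 only, with signals of 64 and 28. The same held for RN7SL1, RN7SL2, RNU6-7, RNU6-8, RNU6-9 and RPPH1, with signals up to 14. RNU6-7, RNU6-8 and RPPH1 had theirs in the first H9 list alone. The lowest signals reported in the 293T lists were 9, 13 and 22, so that peaks as weak as these may go unlisted there. A missing peak in a list is therefore not read as a lack of contact.

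Likeness of pattern was measured over the 5 libraries as the root mean square difference in log2 scaled signal, after each locus's mean was removed. Of the 31 other shared loci, those most like RNY5 were the vault RNA genes VTRNA1-3 at 0.37 and VTRNA1-1 at 0.56, then the glycine tRNA gene TRG-CCC2-2 at 0.64. The median over the 31 was 1.04. VTRNA1-3 had signals of 57, 45 and 27 in 293T against 15 and 6.5 in H9. Its peaks ran from 140726001 to 140726200 in 293T but to 140726400 in H9, so that the H9 values are means over bins. Its likeness to RNY5 depends in part on this difference in width, and no likeness is given here with bins summed. The loci most like RNY1 were the lysine tRNA gene TRK-CTT2-4 at 0.26, the leucine tRNA gene TRL-TAA4-1 at 0.38 and the arginine tRNA gene TRR-ACG1-1 at 0.43, with a median of 0.98. Of the 32 shared loci, 20 were at tRNA genes, so that tRNA genes are common among the loci compared. The RNY1 values also mix widths, as means over 2 bins in the first list of each line and 1 bin in the others. TRK-CTT2-4 had signals of 17, 34 and 23 in 293T against 39 and 22 in H9. RNY1 and RNY5 were 1.58 apart, which placed RNY1 at position 30 of 31 from RNY5.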

How the data were processed

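Per the submitters' processing notes, Bowtie, SAMtools and bedtools were used with hg38, in roles not stated, and no source used here names a peak caller. The authors deposited 1 peak list per FLAG-PUS7 library with a signal, a p-value and a natural log (ln) value for each peak, and no header. A tRNA table per library was not used, because it has no Y RNA row. Peaks were read with pandas 2.3.3 in Python 3.11.15 and matched to RefSeq GRCh38.p14 genes by at least 1 shared base, strand ignored. Peaks of one strand that shared a base were merged into loci. Scaled signals are on a linear scale before log2 was taken, with no pseudocount. The scaling was also run on simulated lists with many more loci than the shared loci here, most of them unchanged. Nothing is read from that run about the scaling of these data.

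The members and gene lists were chosen with earlier results of these data known. Named were the 4 genes, up to 10 pseudogenes with a peak, members with a peak of the lists of Ro particle proteins and polymerase III RNAs, and the 3 shared loci most like RNY5 and RNY1; some are given by count or range. Planned motif searches were not made, and Y RNA sequences were not analysed here. Per the labels each replicate took 2 plates of cells, and nothing says that they were grown apart. Summing over bins and subtracting the second number less 1 were chosen after seeing the data.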

Additional observations from a re-analysis of the deposited data

How the results depend on the processing

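The count of 18 combinations of gene and list was also 18 when a peak had to cover at least 50% of the gene, and 13 with authors' p below 0.001. For RNY5, 293T minus H9 on the log2 scale was 2.37 without scaling, 2.86 scaled by all peaks, and 0.86 to 1.62 with 1 library left out. For RNY1 it was -0.43 without scaling, 0.055 scaled by all peaks (reversed), 0.87 with the second number subtracted and 0.90 with that number less 1 subtracted (both reversed), and -2.01 to -1.01 with 1 library left out. The log2 ratio of RNY5 to RNY1 differed by 0.38 with the second number subtracted, by 0.35 with that number less 1 subtracted and by 2.12 to 3.22 with 1 library left out. The percent of signal at the 4 genes differed by 16.9 points outside tRNA genes, 4.60 over shared loci, and 6.21 to 8.86 with 1 library left out. Scaling by the median of the shared loci, summing peaks and summing bins kept the direction and stayed within 1 SD wherever they were run. The strand alternative was not run because the gene table gives no strand. Differences for RNY3 and RNY4 have no value because the second H9 list has no peak there. No paired analysis was possible because no test was run and the lines compared are different cells. Depth is unknown, which limits every comparison between lists.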
